A study of Mus musculus with 28 samples.

Results

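The transporters by which hepatocytes take organic ions out of the blood were followed across 28 mouse liver samples, 1 per single-colour Agilent array. Members were the probes whose accession in the scanner files maps to 1 of 7 gene symbols: Slc10a1, Slco1a1, Slco1a4, Slco1b2, Slco2b1, Slc22a7 and Slc22a26. Of the 7 genes, 6 had a probe by this rule and all 6 passed the filter on dim probes, among 20303 features tested in all. No probe's accession led to Slco1a1, which is not analysed here. Each of the 6 had 1 probe, printed as 1 spot per array. No spot was saturated. For 5 of the genes every one of the 28 arrays read the probe well above background, against 13 of 28 for Slc22a26, whose probe therefore passed through the groups where it is bright.

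Every group carried the Fah-/- genotype, the loss of the enzyme that completes the breakdown of tyrosine, and such mice depend on nitisinone (NTBC), a drug that blocks the pathway upstream and prevents toxic intermediates from building up. The 7 groups of 4 arrays were Fah-/- p21-/- with no NTBC, Fah-/- p53-/- with no, reduced and full NTBC, and Fah-/- with no, reduced and full NTBC. Full NTBC was 7.5 mg/L in drinking water. The sample labels put the reduced dose at 25% of this and the treatment text at 2.5% for 3 months, so it is called reduced here. The time without NTBC, and the age and sex of the mice, are not given in the sources used here, nor is it stated that the 4 samples of a group are separate animals, so p-values measure the spread between these samples, which may be technical.

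Hepatocytes draw bile acids, bilirubin conjugates, steroid conjugates and many drugs from sinusoidal blood through carriers on their basolateral membrane. Slc10a1 (Ntcp) moves conjugated bile acids together with sodium, while the Slco genes encode sodium-independent organic anion transporting polypeptides and the Slc22 genes encode organic anion and cation transporters. What is taken up is conjugated and then pumped into bile or back to blood by ATP-driven pumps of the Abc families. In mice several of these genes are made at different levels in male and female liver.

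Arrays were scaled to their 75th percentile, and a level below is the log2 of a probe's processed signal relative to that percentile, so levels of different probes are not compared with each other. The 75th percentile signal ranged from 252 to 578 and 54.8 to 68.5% of probes were well above background. Xist and the Y-linked Ddx3y marked 6 arrays as female RNA, namely all 4 of Fah-/- p53-/- with no NTBC and replicates 1 and 2 of Fah-/- p21-/-, and 22 as male. Part of the scan date in the file headers puts the arrays into 3 scan-date sets, which coincide with the 3 doses. Scan-date set and dose therefore cannot be told apart. Whether a set was scanned in 1 session was not examined. Full-dose and reduced-dose groups each lay on a slide of their own, so genotype and slide cannot be told apart at either of these doses. The 12 arrays with no NTBC shared 3 slides. Probes for the deleted genes did not check the labels, and whether they lie in the deleted parts is not known here. Trp53, which encodes p53, read 0.54 ± 0.07 in Fah-/- p53-/- and 0.80 ± 0.24 in Fah-/- livers with no NTBC, 1.18 ± 0.22 and 0.92 ± 0.30 on reduced NTBC, and 1.22 ± 0.18 and 1.41 ± 0.09 on full NTBC. Cdkn1a, which encodes p21, read 3.24 ± 0.22 in Fah-/- p21-/- livers against 4.28 ± 0.10 in Fah-/- livers with no NTBC (SD, n = 4 each). Arrays that stood farthest from the others of their group were replicate 1 of Fah-/- p53-/- and replicates 1 and 2 of Fah-/- p21-/-, all with no NTBC.

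Promoter windows from RefSeq (GRCm38.p6, 250 bases before to 50 after an annotated start) were found for 5 of the 6 measured genes, in 8 windows. Those of Slco1b2, Slc10a1, Slco1a4 and Slc22a26 are printed: Slco1b2 and Slc10a1 as 2 of the members that were lower without NTBC in both genotypes, Slco1a4 and Slc22a26 as those with the widest gap between genotypes at full NTBC. Slco2b1, which was also lower in both, has 3 windows, and they are left out only for their length. Capitals mark, on either strand, the hepatocyte factor HNF1 motif GTTAAT, the STAT5 core TTCNNNGAA and the nuclear receptor motif AGGTCA. The windows are at chr6:141629268-141629567 on the plus strand (Slco1b2) and at chr12:80968656-80968955 (Slc10a1), chr6:141856171-141856470 (Slco1a4) and chr19:7802618-7802917 (Slc22a26) on the minus strand.
Slco1b2: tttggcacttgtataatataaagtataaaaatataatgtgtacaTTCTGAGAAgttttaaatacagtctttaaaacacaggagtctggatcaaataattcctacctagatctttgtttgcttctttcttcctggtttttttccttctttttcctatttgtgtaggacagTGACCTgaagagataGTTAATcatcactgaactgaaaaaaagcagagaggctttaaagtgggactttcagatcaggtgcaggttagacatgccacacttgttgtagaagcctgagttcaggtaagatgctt
Slc10a1: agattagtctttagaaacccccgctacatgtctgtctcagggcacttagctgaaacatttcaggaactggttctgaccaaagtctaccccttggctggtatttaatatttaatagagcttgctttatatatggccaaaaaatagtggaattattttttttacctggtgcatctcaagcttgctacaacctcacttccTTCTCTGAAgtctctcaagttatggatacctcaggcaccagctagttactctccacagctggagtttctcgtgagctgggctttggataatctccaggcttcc
Slco1a4: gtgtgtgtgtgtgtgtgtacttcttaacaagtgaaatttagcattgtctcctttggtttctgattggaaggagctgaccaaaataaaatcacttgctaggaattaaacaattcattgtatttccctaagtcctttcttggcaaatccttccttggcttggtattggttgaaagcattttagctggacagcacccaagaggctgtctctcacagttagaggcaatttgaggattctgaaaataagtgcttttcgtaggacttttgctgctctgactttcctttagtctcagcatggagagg
Slc22a26: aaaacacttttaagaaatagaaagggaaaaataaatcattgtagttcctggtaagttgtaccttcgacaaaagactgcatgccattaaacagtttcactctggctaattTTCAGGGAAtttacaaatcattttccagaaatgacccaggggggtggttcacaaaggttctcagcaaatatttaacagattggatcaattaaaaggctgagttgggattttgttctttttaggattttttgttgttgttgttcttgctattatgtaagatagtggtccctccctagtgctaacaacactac
Slco1b2 held all 3 motifs, with GTTAAT 66 bases, AGGTCA 81 bases and TTCNNNGAA 206 bases before the start. Slc22a26 held TTCNNNGAA at 141 bases and the Slc10a1 window shown held it at 53. Slco1a4 held none of the 3. TTCNNNGAA was in 5 of the 8 windows and in 8.3% of 32851 windows of all genes, AGGTCA in 2 and in 16.3%, and GTTAAT in 1 and in 7.1%. A further 6 short motifs were searched on both strands, of which AGTTCA was in 2 of 8 windows (14% of all), ATTGCNNCA in 1 (2.12%), AAACA in 7 (50.5%) and CAAAG in 7 (53.9%), while TGACNNNGC (12.4%) and TTGCNCAA (2.94%) were in 0. The windows of 1 gene belong together, and a match of letters is a description of the window.

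**Figure D1:**
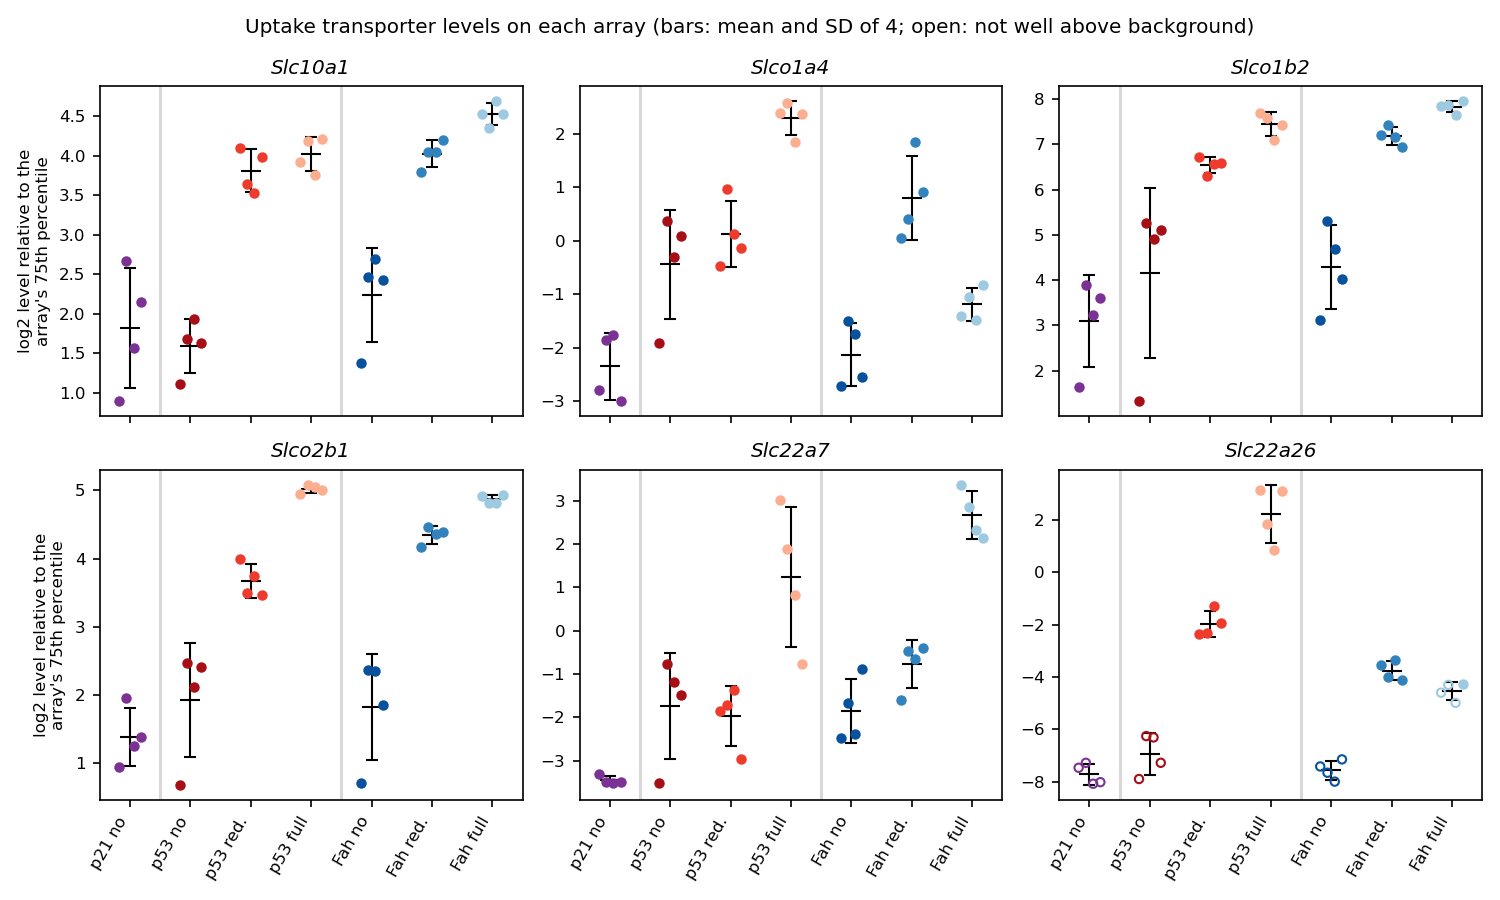
Level of each uptake transporter on each of the 28 arrays, as log2 of the signal relative to the array's 75th percentile (y axis), by group (x axis; p21, p53 and Fah stand for Fah-/- p21-/-, Fah-/- p53-/- and Fah-/-, and no, red. and full for the NTBC dose). Black bars are the mean and SD of 4 arrays and open points were not well above background. Slco1a4 averages 0.12 on reduced and 2.29 on full NTBC in Fah-/- p53-/- livers, and 0.80 on reduced and -1.19 on full NTBC in Fah-/- livers.

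Without NTBC the uptake transporters were broadly lower in both genotypes. The Fah-/- p53-/- arrays with no NTBC held female RNA and those with NTBC male RNA. Dose and sex therefore cannot be told apart in any comparison of no NTBC with a dose in that genotype. In Fah-/- p53-/- livers 6 of 6 were called lower than at full dose (median log2 fold change -3.04; -0.14 over all features), where 40.1% of all features were called lower and 69.7% called in either direction. In Fah-/- livers 5 of 6 were called lower (median -3.03; -0.17 over all features), where 41.6% were called lower and 70.9% either way. At the reduced dose, in Fah-/- p53-/- livers 4 were called lower and 0 higher than at full dose (median -1.76), against 19.5% of all features lower and 39.8% either way, and in Fah-/- livers 1 was called higher and 1 lower (median -0.51), against 22.3% lower and 39.8% either way. These counts do not compare the genotypes: with the compared groups fitted alone, 2 members were called higher and 4 lower in Fah-/- livers. Slc22a26, mostly not well above background at full dose there, was 1 of the 2. From the reduced dose to none, 4 of 6 were called lower in Fah-/- p53-/- livers (median -1.99), beside 38.1% of all features lower and 61.3% either way, and 5 of 6 in Fah-/- livers (median -2.71), beside 38.1% lower and 64.3% either way. All counts and medians for no NTBC include Slc22a26, whose probe was not well above background on any array with no NTBC. Its call against full NTBC in Fah-/- livers was lost with the deposited table (-0.29 ± 0.28, adjusted p = 0.375). Calls are at an adjusted p under 0.05 (limma over 28 arrays, Benjamini-Hochberg over 20303 features), and 6 genes are too few for these shares to set the members apart from the many features that changed. In whole liver RNA, fewer hepatocytes and less RNA per hepatocyte cannot be told apart.

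Slc10a1, the sodium-dependent bile acid carrier, was lower without NTBC in both genotypes and was not called at the reduced dose. Its levels were 1.11, 1.68, 1.93 and 1.63 in Fah-/- p53-/- livers with no NTBC, 4.09, 3.64, 3.53 and 3.98 with reduced NTBC and 3.92, 4.19, 3.76 and 4.21 with full NTBC. Fah-/- livers had 1.37, 2.47, 2.69 and 2.42 with no NTBC, 3.79, 4.05, 4.05 and 4.20 with reduced NTBC and 4.52, 4.35, 4.69 and 4.53 with full NTBC. All 8 arrays with no NTBC lay below all 16 arrays with some NTBC in these 2 genotypes. Against full NTBC, Slc10a1 fell by 2.43 ± 0.28 without NTBC in Fah-/- p53-/- livers (SE on the log2 scale, 5.39-fold, adjusted p = 6.40e-08). It fell by 2.29 ± 0.28 in Fah-/- livers (4.88-fold, 1.71e-07). At the reduced dose the differences of -0.21 ± 0.28 in Fah-/- p53-/- livers (adjusted p = 0.583) and -0.51 ± 0.28 in Fah-/- livers (0.163) did not pass the test. In Fah-/- livers the reduced and full arrays did not overlap, and with these 2 groups fitted alone the same -0.51 had an SE of 0.11 and an adjusted p of 0.00809.

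Slco1b2, the liver-restricted transporter of bilirubin conjugates, bile acids and drugs such as statins, had the same order of doses. It read 1.34, 5.27, 4.90 and 5.11 in Fah-/- p53-/- livers with no NTBC, 6.73, 6.30, 6.57 and 6.59 with reduced NTBC and 7.70, 7.59, 7.09 and 7.43 with full NTBC. Fah-/- livers read 3.13, 5.30, 4.70 and 4.03 with no NTBC, 7.21, 7.42, 7.17 and 6.95 with reduced NTBC and 7.84, 7.87, 7.66 and 7.96 with full NTBC. No array with no NTBC reached those with NTBC, and in each genotype every reduced-dose array lay below every full-dose array. Slco1b2 fell by 3.30 ± 0.60 without NTBC in Fah-/- p53-/- livers (9.82-fold, adjusted p = 3.65e-05). Slco1b2 fell by 3.54 ± 0.60 in Fah-/- livers (11.6-fold, 1.48e-05). The reduced-dose differences of -0.90 ± 0.60 and -0.64 ± 0.60 (adjusted p = 0.241 and 0.423, Fah-/- p53-/- and Fah-/- livers in that order) did not pass. The groups with no NTBC spread more (SD 1.88 and 0.93) than those with NTBC (0.13 to 0.27). Fitted to the compared groups alone, both passed, with SEs of 0.16 and 0.12 and adjusted p of 0.00325 and 0.00333.

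Slco2b1, which takes up sulfated steroids and is found in liver and gut, was lower at each step of dose. Its levels were 0.69, 2.47, 2.12 and 2.41 in Fah-/- p53-/- livers with no NTBC, 3.99, 3.49, 3.74 and 3.47 with reduced NTBC and 4.95, 5.08, 5.05 and 5.0 with full NTBC. Levels in Fah-/- livers were 0.71, 2.37, 2.36 and 1.86 with no NTBC, 4.17, 4.47, 4.36 and 4.39 with reduced NTBC and 4.92, 4.82, 4.81 and 4.93 with full NTBC. The 3 doses formed 3 separate bands in each genotype. Slco2b1 fell by 3.1 ± 0.32 without NTBC in Fah-/- p53-/- livers (adjusted p = 9.65e-09) and by 3.04 ± 0.32 in Fah-/- livers (1.37e-08). At the reduced dose it fell by 1.35 ± 0.32 in Fah-/- p53-/- livers (adjusted p = 0.0019), 2.54-fold, while -0.52 ± 0.32 in Fah-/- livers did not pass (0.208; 0.00239 with the 2 groups alone). The difference between these 2 responses, -0.83 ± 0.45, did not pass either (adjusted p = 0.255), and it passed with only these 4 groups fitted (SE 0.15, adjusted p = 0.00449).

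**Figure D2:**
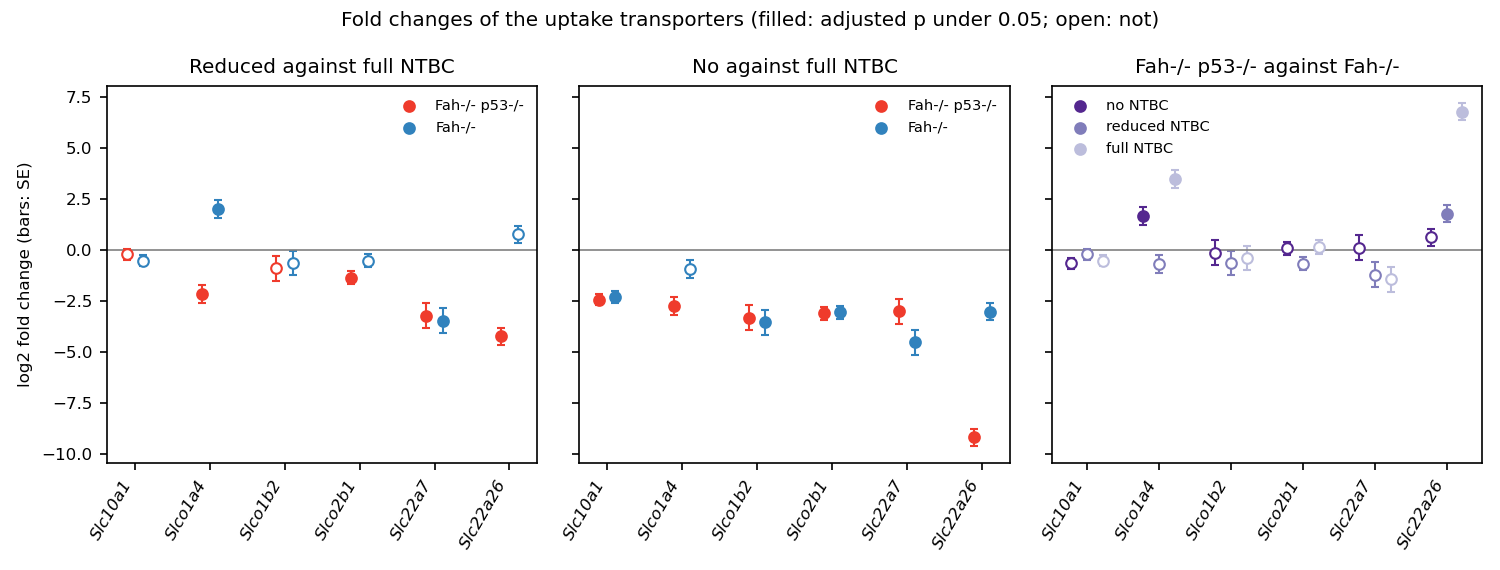
Log2 fold change with its SE (y axis) of each uptake transporter (x axis) for reduced against full NTBC and no against full NTBC in Fah-/- p53-/- and Fah-/- livers, and for Fah-/- p53-/- against Fah-/- livers at each dose; filled points passed an adjusted p of 0.05. At the reduced dose Slco1a4 lies at -2.17 in Fah-/- p53-/- livers and 1.99 in Fah-/- livers, and at full dose Slco1a4 stands at 3.48 in Fah-/- p53-/- over Fah-/- livers. Points of Slc22a26 that involve a group with no NTBC, or Fah-/- livers on full NTBC, rest on arrays not well above background and are no measured sizes.

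Slco1a4 encodes a carrier of bile acids and cardiac glycosides that is known to be higher in female than male mouse liver, and it was the only member whose called change with reduced NTBC had opposite signs in the 2 genotypes. It read -0.47, 0.96, 0.13 and -0.14 in Fah-/- p53-/- livers on reduced NTBC, against 2.38, 2.58, 1.84 and 2.37 on full NTBC. Fah-/- livers read 0.05, 0.40, 1.85 and 0.90 on reduced NTBC, against -1.40, -1.05, -1.48 and -0.82 on full NTBC. Neither pair of groups overlapped: the 4 reduced-dose arrays lay below all full-dose arrays in Fah-/- p53-/- livers and above all of them in Fah-/- livers. Slco1a4 fell by 2.17 ± 0.44 in Fah-/- p53-/- livers (4.51-fold, adjusted p = 4.16e-04) and rose by 1.99 ± 0.44 in Fah-/- livers (3.97-fold, 9.34e-04). The difference between the 2 responses was -4.16 ± 0.62 (adjusted p = 2.01e-04), and it lay between -4.44 and -3.08 over 26 alternatives, all past the threshold. None of these alternatives can separate slide from group, since each of the groups compared lay on its own slide.

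The genotypes, each on its own slide, stood far apart in Slco1a4 at full NTBC: Fah-/- p53-/- livers were 11.2-fold higher (3.48 ± 0.44, adjusted p = 5.60e-06). On reduced NTBC they overlapped, with a difference of -0.68 ± 0.44 that did not pass (adjusted p = 0.316). With no NTBC Slco1a4 read -1.91, 0.36, -0.31 and 0.08 in Fah-/- p53-/- livers, against -2.72, -1.51, -1.74 and -2.55 in Fah-/- livers. Replicates 2, 3 and 4 of Fah-/- p53-/- lay above all Fah-/- arrays and replicate 1 lay among them. The rise of 1.69 ± 0.44 (adjusted p = 0.0126) compares female with male RNA, lay between 1.15 and 2.17 over 22 alternatives and missed the threshold in 4 of them, among them the fit to these groups alone (0.0858) and that with sex as a term (0.349). Against full NTBC, Slco1a4 fell by 2.74 ± 0.44 without NTBC in Fah-/- p53-/- livers (adjusted p = 6.82e-06), while -0.94 ± 0.44 in Fah-/- livers missed the threshold (0.0584) although the arrays did not overlap; it passed with the 2 groups alone (0.0185). The difference between these responses was -1.80 ± 0.62 (adjusted p = 0.07) and passed in 3 of 28 alternatives.

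Of the 2 Slc22 genes, Slc22a7 (Oat2), a carrier of small organic anions such as cyclic nucleotides, lost most of its level already at the reduced dose. In Fah-/- p53-/- livers it read -3.53, -0.76, -1.18 and -1.48 with no NTBC, -1.86, -1.72, -1.36 and -2.96 with reduced NTBC and 3.03, 1.88, 0.83 and -0.76 with full NTBC. Fah-/- livers had -2.48, -1.66, -2.38 and -0.88 with no NTBC, -1.59, -0.48, -0.65 and -0.39 with reduced NTBC and 3.37, 2.87, 2.32 and 2.14 with full NTBC. All 8 full-dose arrays lay above the reduced-dose arrays of the same genotype, with a wide spread in Fah-/- p53-/- livers (SD 1.61, against 0.56 in Fah-/- livers). Slc22a7 fell by 3.22 ± 0.61 in Fah-/- p53-/- livers on reduced NTBC (9.32-fold, adjusted p = 2.18e-04) and fell by 3.45 ± 0.61 in Fah-/- livers (10.9-fold, 1.05e-04). Reduced and no NTBC overlapped, with no call between them in Fah-/- p53-/- livers (0.23 ± 0.61, adjusted p = 0.755) or Fah-/- livers (-1.07 ± 0.61, 0.126; 0.0386 with the 2 groups alone). Against full NTBC, Slc22a7 fell by 2.99 ± 0.61 without NTBC in Fah-/- p53-/- livers (7.92-fold, adjusted p = 1.40e-04). Slc22a7 fell by 4.52 ± 0.61 in Fah-/- livers (23.0-fold, 5.99e-07).

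Slc22a26 belongs to a rodent cluster of organic anion transporter genes and read far higher in Fah-/- p53-/- than in Fah-/- livers on full NTBC. It read 3.14, 1.84, 0.85 and 3.11 in Fah-/- p53-/- livers on full NTBC, against -4.60, -4.30, -4.99 and -4.27 in Fah-/- livers on full NTBC, where 1 of 4 arrays was well above background. On reduced NTBC it read -2.37, -2.33, -1.29 and -1.94 in Fah-/- p53-/- livers, against -3.56, -4.02, -3.37 and -4.10 in Fah-/- livers, all 8 arrays well above background. Each Fah-/- p53-/- array lay above each Fah-/- array at both doses. At reduced NTBC the difference was 1.78 ± 0.41 (adjusted p = 0.00494; 0.79 with normexp background correction and 0.73 with the deposited table, neither of which passed). At full NTBC the fitted difference was 6.78, against 3.93 with normexp and 4.40 with the deposited table. It is given as a description with no test, since the probe entered through the groups where it is bright and 3 of the 4 Fah-/- arrays were not well above background.

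With no NTBC the Slc22a26 probe was not well above background on any of the 12 arrays, so only bounds hold there, on the scale of the processed signal. The full-dose level was at least 200.4-fold that without NTBC in Fah-/- p53-/- livers; over the alternatives the fitted change lay between -9.85 and -4.36. No bound is given in Fah-/- livers, where 1 of 4 full-dose arrays was well above background and the deposited table gave -0.29 ± 0.28 (adjusted p = 0.375). The bounds set the bright group's mean against, per dim array, the higher of the dimmest well-measured signal and the probe's own. The reduced-dose level was at least 10.78-fold in Fah-/- p53-/- livers and at least 3.728-fold in Fah-/- livers. Against reduced NTBC, the call was lost with the deposited table in Fah-/- livers (-0.46 ± 0.28, adjusted p = 0.17) and with normexp in Fah-/- p53-/- (-1.07 ± 0.47, 0.0921) and Fah-/- livers (-1.04 ± 0.47, 0.0912). Between reduced and full NTBC Slc22a26 fell by 4.22 ± 0.41 in Fah-/- p53-/- livers (18.6-fold, adjusted p = 8.47e-08). Every array of these groups read the probe well above background, and the filter was passed through them. The size depends on the processing, with a fitted change of -3.29 with normexp and -3.50 with the deposited table. In Fah-/- livers the fitted difference was 0.78, and -0.15 with normexp. It is a description with no test, since 1 of 4 full-dose arrays was well above background. The fitted difference of these responses, -5.00 (-3.14 with normexp), includes Fah-/- livers on full NTBC and is a description. None is read for the response to no NTBC, where the probe was not well above background in either genotype.

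The test of the difference between the 2 genotypes' responses to reduced NTBC called 2 of 6 members, Slco1a4 and Slc22a26, beside 10.4% of all features, and that to no NTBC called 1, Slc22a26, beside 9.11%. The Slc22a26 calls rest on arrays not well above background, and with probes well above background on all 28 arrays the counts were 1 and 0. At full NTBC 2 members were higher in Fah-/- p53-/- than in Fah-/- livers and 0 lower, beside 6.34% of all features higher and 13.9% either way. On reduced NTBC 1 was higher (9.85% of all features higher, 15.6% either way) and with no NTBC 1 was higher (7.65% and 14.2%). Slc22a26 is 1 of the 2 at full NTBC and the 1 on reduced NTBC, where its call was lost with normexp and with the deposited table. Slc10a1, Slco1b2, Slco2b1 and Slc22a7 were not called between Fah-/- p53-/- and Fah-/- livers at any dose, with differences between -1.43 ± 0.61 (Slc22a7 at full NTBC, adjusted p = 0.124) and 0.15 ± 0.32 (Slco2b1 at full NTBC, 0.807). Without replicate 1 of Fah-/- p53-/- on full NTBC the Slc22a7 difference was -2.02 ± 0.58 and passed (0.0288). Groups fitted alone also called Slc10a1 at full NTBC (-0.51 ± 0.13, adjusted p = 0.0413; -0.98 with normexp, 0.0468) and, on reduced NTBC, Slco1b2 (-0.64 ± 0.13, 0.0153) and Slco2b1 (-0.67 ± 0.14, 0.0143). The response comparisons share the full-dose groups with the comparison at full NTBC.

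Loss of p21 without NTBC called 0 of 6 members, beside 7.53% of all features (limma; 1 member, Slc22a7, at an unadjusted p under 0.05). Slc22a7 read -3.30, -3.50, -3.51 and -3.50 in Fah-/- p21-/- livers, against -2.48, -1.66, -2.38 and -0.88 in Fah-/- livers. The groups did not overlap, and the difference of -1.61 ± 0.61 had an unadjusted p of 0.0147 and an adjusted p of 0.111. Over 23 alternatives it lay between -1.88 and -0.72 and passed in none. Replicates 1 and 2 of Fah-/- p21-/- held female RNA and lay on slide 5. All Fah-/- arrays here held male RNA and lay on slides 6 and 7. Genotype is therefore mixed in part with sex and slide in this comparison. The other 5 differed by -1.19 ± 0.60 (Slco1b2) to -0.16 ± 0.41 (Slc22a26), none past the threshold.

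Fah-/- p53-/- livers were set against Fah-/- p21-/- livers with no NTBC as well. There 1 member, Slco1a4, was called higher (1.90 ± 0.44, adjusted p = 0.00602), with Fah-/- p21-/- levels of -2.79, -1.86, -1.76 and -2.99. Of all features 5.04% were called higher and 11% either way. Without replicate 1 of Fah-/- p53-/-, 4 members were called higher, Slco1b2 then by 2.0 ± 0.41 (adjusted p = 0.00161), Slc22a7 by 2.31 ± 0.58 (0.00806) and Slco2b1 by 0.94 ± 0.27 (0.0179). The Slco1a4 call was lost within the slide that holds both groups (1.55 ± 0.65, 0.231), with slide as a fixed block (0.216) and with the 2 groups alone (0.104). Within Fah-/- p21-/- livers, the 2 female arrays lay on slide 5 and the 2 male arrays on slide 7, so sex and slide cannot be told apart there, and both female arrays are among the 3 farthest from their groups. Female minus male was 0.05 ± 0.63 for Slco1a4 and -0.65 ± 0.86 for Slco1b2; none of the 6 passed, which with 2 arrays a side does not show that sex has no effect.

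**Figure D3:**
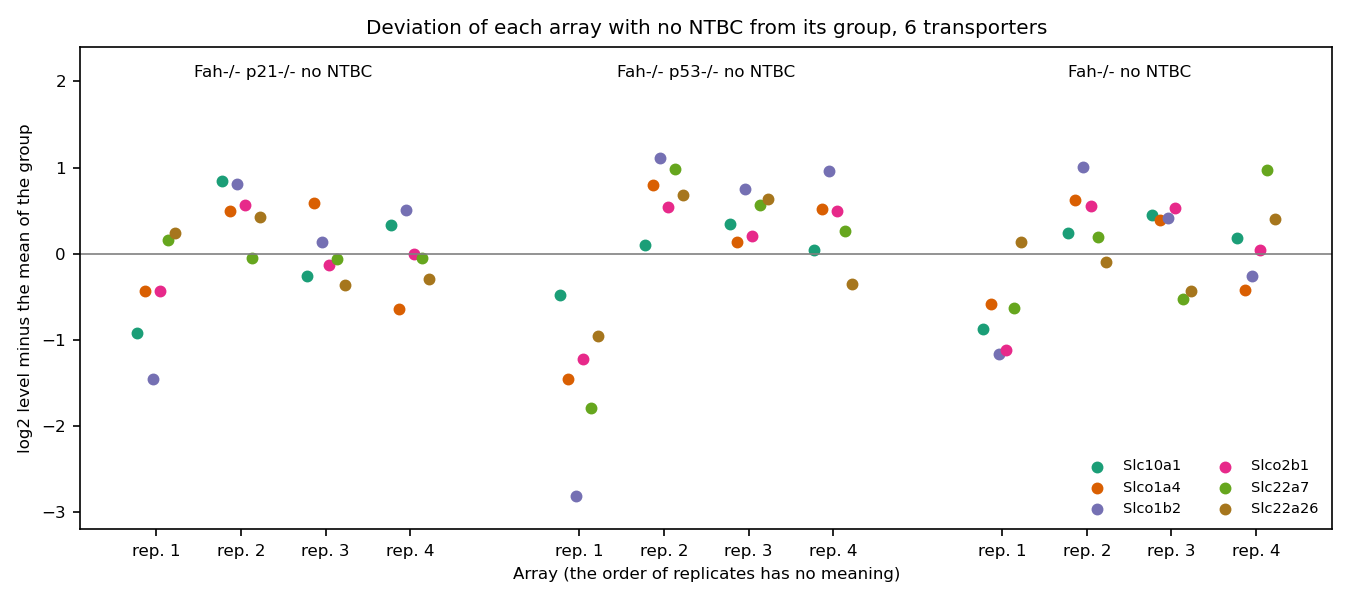
Log2 level of each uptake transporter minus the mean of its group (y axis) on each of the 12 arrays with no NTBC (x axis), in Fah-/- p21-/-, Fah-/- p53-/- and Fah-/- livers; each colour is 1 gene. In replicate 1 of Fah-/- p53-/- the 5 genes measured above background lie below the group mean, Slco1b2 at -2.81; Slc22a26 was not well above background on any of these arrays.

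Some members deviated together between arrays of 1 group and others did not. In replicate 1 of Fah-/- p53-/- livers with no NTBC the 5 genes measured above background lay below the group's mean, Slco1b2 at -2.81, Slc22a7 at -1.79, Slco1a4 at -1.46, Slco2b1 at -1.23 and Slc10a1 at -0.48. In replicate 1 of Fah-/- livers with no NTBC the same 5 lay below it, led by Slco1b2 at -1.17 and Slco2b1 at -1.12. In replicate 1 of Fah-/- p21-/- livers Slco1b2 was at -1.46 and Slc10a1 at -0.92, while Slc22a7 was at 0.16. After group means were taken out, the deviations of Slco1b2 and Slco2b1 correlated at 0.893 over 28 arrays, those of Slc10a1 and Slco2b1 at 0.753, and those of Slc10a1 and Slc22a7 at 0.122. These arrays share their scaling and labelling, and the correlations are descriptions.

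In order of group means, Slc10a1, Slco1b2 and Slco2b1 put the 4 groups with NTBC above the 3 without, and neighbours among the 3 groups without NTBC did not differ beyond their SD for these 3 genes. The arrays of all 4 groups with NTBC were separate for Slco2b1, at 5.02 ± 0.06 in Fah-/- p53-/- on full NTBC, 4.87 ± 0.07 in Fah-/- on full NTBC, 4.35 ± 0.13 in Fah-/- on reduced NTBC and 3.67 ± 0.25 in Fah-/- p53-/- on reduced NTBC. Slco1a4 had Fah-/- p53-/- on full NTBC on top (2.29 ± 0.32), and Fah-/- on reduced NTBC next (0.80 ± 0.78), apart by more than the SD although their arrays overlapped; Fah-/- p53-/- on reduced NTBC, Fah-/- p53-/- with no NTBC and Fah-/- on full NTBC followed, with neighbours that did not differ beyond their SD. Slc22a26 was at 2.24 ± 1.11 in Fah-/- p53-/- on full, -1.98 ± 0.50 in Fah-/- p53-/- on reduced and -3.76 ± 0.36 in Fah-/- on reduced NTBC, 3 groups that did not overlap. The place of Fah-/- on full NTBC below them was not measured, with 1 of 4 arrays well above background.

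Efflux pumps and other carriers had calls both ways. Without NTBC 29.6% of all features were called higher and 40.1% lower in Fah-/- p53-/- livers, and 29.3% and 41.6% in Fah-/- livers, and the list counts that follow are to be read against these shares. Of 14 measured efflux pumps and other carriers, 6 rose and 6 fell without NTBC in Fah-/- p53-/- livers (median 0.11). In Fah-/- livers 4 rose and 7 fell (median -0.41). Not all 14 move bile acids or work outward. Uptake transporters called lower numbered 6 and 5 in these genotypes, Slc22a26 among them. Abcc4, a basolateral pump that returns bile acids to the blood, rose by 3.78 in Fah-/- p53-/- and 4.26 in Fah-/- livers. Abcc2, the canalicular pump of bilirubin conjugates, rose by 1.56 and 1.97. Abcb11, the canalicular bile salt export pump, fell in both, with -2.94 in Fah-/- p53-/- and -3.07 in Fah-/- livers, and Abcc6 fell by 4.08 in Fah-/- p53-/- livers, against -4.25 in Fah-/- livers. On reduced NTBC Abcc4 was already 4.59 higher in Fah-/- p53-/- and 4.66 higher in Fah-/- livers, while Slc10a1 was not called.

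**Figure D4:**
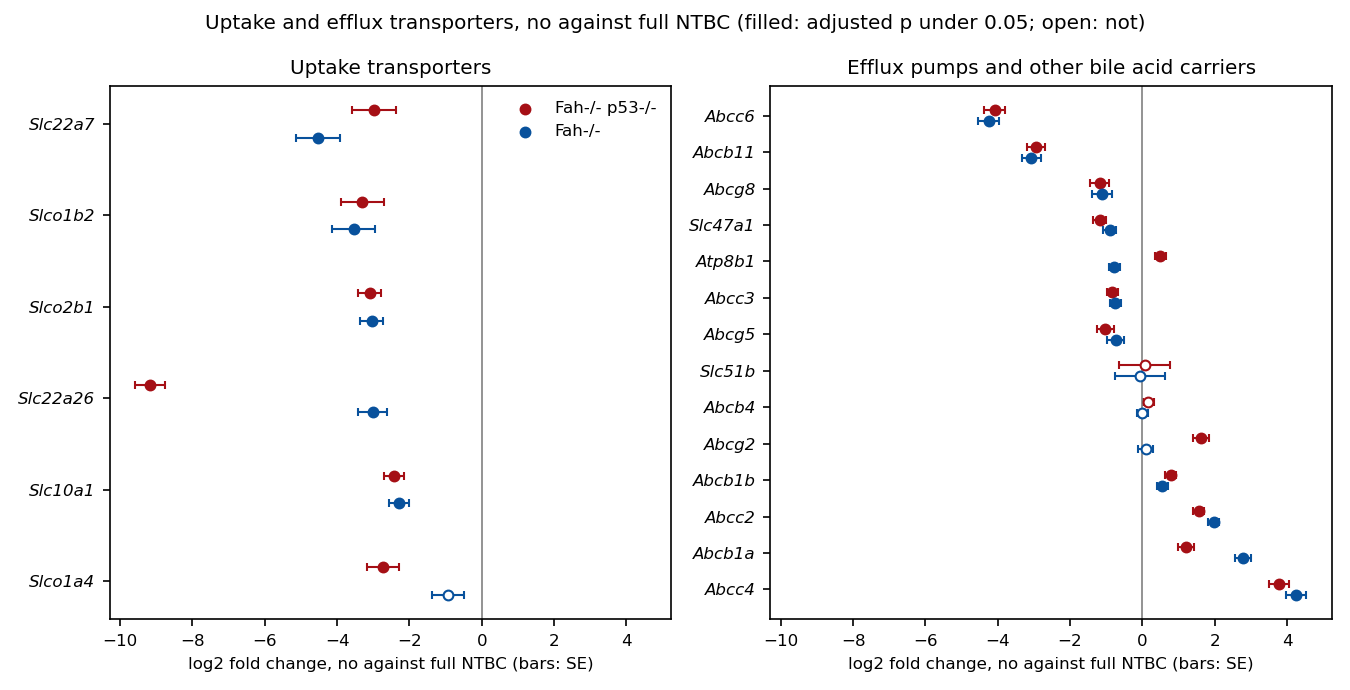
Log2 fold change with its SE (x axis) for no against full NTBC in Fah-/- p53-/- and Fah-/- livers, for the 6 uptake transporters and 14 efflux pumps and other carriers, not all of them for bile acids (y axis). Filled points passed an adjusted p of 0.05. Fitted values of Slc22a26 are no bounds, since its probe was not well above background with no NTBC, nor was that of Abcb1a in Fah-/- livers on full NTBC. The uptake transporters lie below 0 in both genotypes (Slco1a4 in Fah-/- livers not past the test), and the other 14 genes run from Abcc6 (-4.08 and -4.25) to Abcc4 (3.78 and 4.26).

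Relatives of the members had calls both ways, as did features at large. Of 5 other Slco genes that passed the filter, 2 rose and 1 fell without NTBC in each genotype: Slco1a6 was at least 1.253-fold higher in Fah-/- p53-/- livers, where no full-dose array was well above background, and 2.43 higher on the log2 scale in Fah-/- livers. Slco4a1 was 1.42 higher on the log2 scale in Fah-/- p53-/- livers and at least 1.539-fold higher in Fah-/- livers, again with no full-dose array well above background. The 2.43 and the 1.42 are fitted values and no measured sizes. On full NTBC 1 of 4 Fah-/- arrays read Slco1a6 well above background, and 2 of 4 Fah-/- p53-/- arrays read Slco4a1 so. Slco1a5 changed by -1.93 in Fah-/- p53-/- and -1.52 in Fah-/- livers. Of 16 other Slc22 genes, 4 rose and 9 fell in Fah-/- p53-/- livers (median -1.29) and 3 rose and 10 fell in Fah-/- livers (median -1.03). Slc22a28 and Slc22a30 fell most, by -7.61 and -6.25 on the log2 scale in Fah-/- p53-/- and by -6.21 and -6.07 in Fah-/- livers. Slc22a29, another gene of the Slc22 family, was at least 66.24-fold higher in Fah-/- p53-/- than in Fah-/- livers on full NTBC, and whether its probe or that of Slc22a26 also binds transcripts of the other was not tested.

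Lists of bile acid synthesis and of hepatocyte regulators held mostly lower calls without NTBC. All 11 genes of bile acid synthesis and conjugation fell in Fah-/- p53-/- livers without NTBC (median -1.18) and 10 of 11 in Fah-/- livers (median -1.90). Cyp7a1, the rate-limiting enzyme of the classic pathway, fell by 4.49 in Fah-/- p53-/- livers and was -0.42 and not called in Fah-/- livers, and Baat, which conjugates bile acids, fell in both (-3.18 and -2.34). Of 15 nuclear receptors and hepatocyte factors, 11 fell and 2 rose in Fah-/- p53-/- livers and 10 fell and 2 rose in Fah-/- livers. Nr1h4, the bile acid receptor FXR, changed by -1.57 in Fah-/- p53-/- and -0.89 in Fah-/- livers, Nr1i3, the receptor CAR, by -1.68 and -2.18, and Hnf4a, a hepatocyte transcription factor, by -0.76 and -0.78, all called.

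Markers of cell types differed between doses as well. All 19 hepatocyte markers fell without NTBC in both genotypes (median -1.78 in Fah-/- p53-/- and -1.65 in Fah-/- livers), and their mean level per array ranged from 6.54 to 6.68 in Fah-/- p53-/- livers with no NTBC, against 8.40 to 8.46 with full NTBC, and from 6.81 to 7.15 in Fah-/- livers with no NTBC, against 8.58 to 8.77. Of 12 macrophage and Kupffer cell markers 9 rose in Fah-/- p53-/- and 11 in Fah-/- livers, and of 8 cholangiocyte markers 5 rose in each. The macrophage list's mean level was 1.71 to 2.95 in Fah-/- p53-/- livers with no NTBC, against 0.98 to 1.54 with full NTBC, and 1.51 to 3.05 in Fah-/- livers with no NTBC, against 0.69 to 1.48. The cholangiocyte list's was -0.77 to 0.36 against -2.30 to -1.62 in Fah-/- p53-/- livers, and -0.85 to 0.15 against -2.11 to -1.36 in Fah-/- livers. On reduced NTBC 19.5% of all features were called lower and 20.3% higher in Fah-/- p53-/- livers, and 22.3% and 17.4% in Fah-/- livers. There 14 hepatocyte markers fell in Fah-/- p53-/- and 15 in Fah-/- livers, with 0 macrophage markers called in either. Of 8 cholangiocyte markers, 1 was higher and 3 lower in Fah-/- p53-/- livers (median -0.86). In Fah-/- livers 0 were higher and 4 lower (median -0.80), and 8 genes are too few to set these counts apart from those shares. Of 11 lymphocyte markers, 9 fell and 0 rose without NTBC in Fah-/- p53-/- livers, and 4 fell and 1 rose in Fah-/- livers. Of 12 liver endothelial markers, 5 fell and 1 rose in Fah-/- p53-/- livers, and 3 fell and 5 rose in Fah-/- livers. Among 12 stellate cell and fibroblast markers, 1 fell and 4 rose in Fah-/- p53-/- livers, and 1 fell and 3 rose in Fah-/- livers. Without NTBC 40.1% of all features fell and 29.6% rose in Fah-/- p53-/- livers, and 41.6% and 29.3% in Fah-/- livers. Lists of 12 are too short to set the endothelial and stellate counts apart from those shares. The part of the marker shifts in the fall of the transporters was not tested.

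At full NTBC, Slco1a4 and Slc22a26 differed between genotypes in the same direction as transcripts that female mouse livers make more of. The Fah-/- p53-/- arrays on full and reduced NTBC carried male RNA. On full NTBC 6.34% of all features were called higher and 7.59% lower in Fah-/- p53-/- than in Fah-/- livers. There 15 of 21 female-biased transcripts were higher and 0 lower (median 1.68). Of 15 male-biased transcripts 13 were lower and 0 higher (median -2.22). The mean level per array was 2.15 to 3.42 in Fah-/- p53-/- livers, against 0.29 to 0.68 in Fah-/- livers, for the female-biased list, and 3.43 to 3.83 against 7.11 to 7.37 for the male-biased list. Cux2, a factor made mainly in female liver, was at least 17.45-fold higher, and Hsd3b5, a steroid enzyme of male liver, fell by 10.80 on the log2 scale. On reduced NTBC the female-biased list stood at 2.81 to 3.14 in Fah-/- p53-/- livers, against 1.70 to 1.95 in Fah-/- livers. Between reduced and full NTBC, 3 of 21 female-biased transcripts were called higher and 6 lower in Fah-/- p53-/- livers (median -0.11), where Slco1a4 fell. Those counts lie near the shares of all features there, 20.3% higher and 19.5% lower. In Fah-/- livers, where Slco1a4 rose, 11 were higher and 1 lower (median 1.21), beside 17.4% and 22.3% of all features. In the p53 comparison of responses to reduced NTBC, 4 female-biased transcripts were called more negative and 0 more positive, beside 3.64% and 6.74% of all features. In that to no NTBC, 12 of 21 were more negative and 0 more positive (median -1.19), beside 4.25% and 4.86%. There the Fah-/- p53-/- arrays with no NTBC held female RNA, so dose and sex cannot be told apart. The part of this pattern in the Slco1a4 and Slc22a26 differences was not tested.

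**Figure D5:**
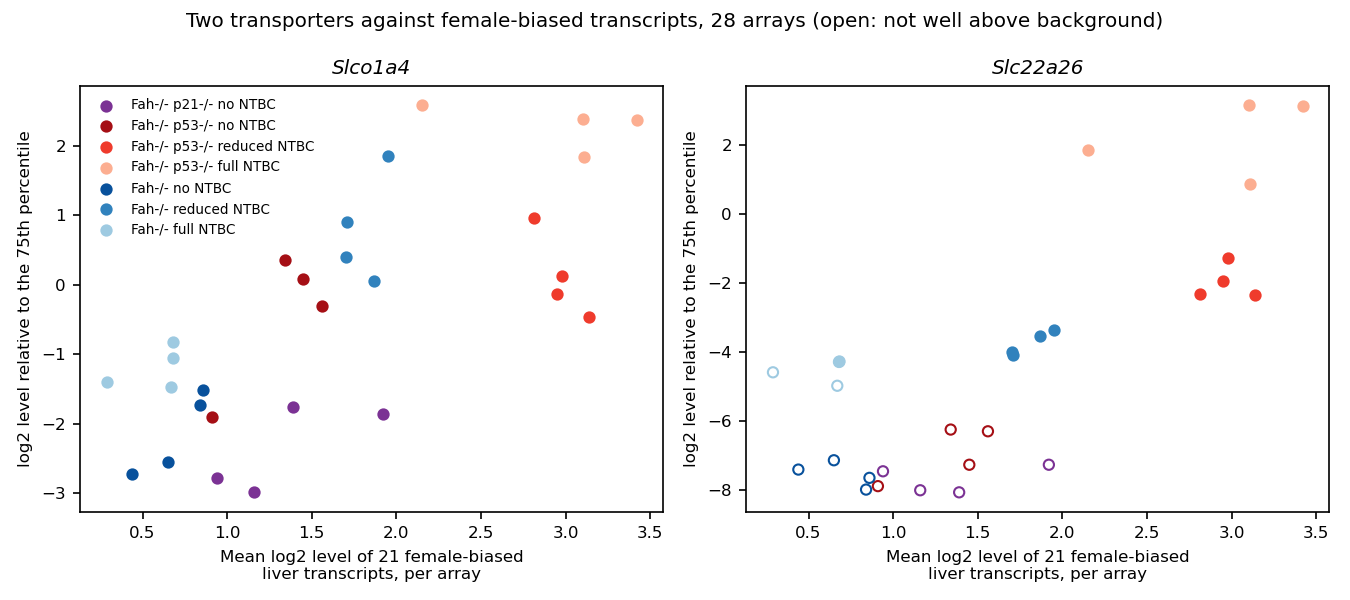
Level of Slco1a4 and Slc22a26 (y axes, log2 relative to the 75th percentile) against the mean log2 level of 21 female-biased liver transcripts (x axis) on each of the 28 arrays; open points were not well above background. Fah-/- p53-/- arrays on full NTBC lie at 2.15 to 3.42 on the x axis, against 0.29 to 0.68 for Fah-/- arrays on full NTBC.

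Genes whose levels followed each member most closely over the 28 arrays, by Pearson correlation, were found among all measured genes. Slc10a1 was closest to Otc, a urea cycle enzyme, Faah and Slc25a23 (r = 0.977 each), Slco1b2 to the clotting factor gene F9 (0.975) and the glucuronosyltransferase-family genes Ugt3a1 and Ugt3a2 (0.975 and 0.971), and Slco2b1 to Fggy (0.988), the glycogen phosphorylase Pygl and the glucokinase regulator Gckr (0.984 each). Slc22a7 was closest to Clu, Cldn3 and Nsmf (0.926 each). Slco1a4 was closest to Ildr2 (0.878), Ankrd2 (0.877) and Slc22a26 (0.85), and Slc22a26 to Amer2 (0.926), Shc3 (0.924) and the steroid hydroxylase Cyp17a1 (0.923), itself a member of the female-biased list. The most opposite genes were Map3k6 for Slc10a1 (-0.967), Abl2 for Slco1b2 (-0.964) and Slco2b1 (-0.986), Nampt for Slc22a7 (-0.939), Fgd6 for Slco1a4 (-0.857) and Tmed9 for Slc22a26 (-0.959). The Slc22a26 values include 15 arrays on which its probe was not well above background. The arrays share dose and scan-date set, so these values describe shared patterns over 7 groups.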

How the data were processed

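Liver RNA of 28 samples was measured, 1 sample per array. The headers name Agilent Feature Extraction 10.7.3.1 as the reader of the spots, while the submitters' processing notes name 10.5. As deposited, each scanner file gives a processed intensity on a linear scale with background subtracted and trends within the array removed, and not scaled between arrays; the median spot and background intensity; and other values, as deposited, that flag spots as 0 or 1. Values of the deposited table are log2, with nearly equal array medians (6.890 to 6.912); its software is not named in the sources. Its columns follow the median spot intensity of the same arrays with a correlation of 0.9895 to 0.9994, so its direction is that of intensity. Its exact background correction stays unknown.

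From the files, 2525 of 1214612 spot values with outlier flags were left out, replicate spots averaged, and each array's log2 processed intensity expressed relative to the 75th percentile. The filter asked for a signal well above background in all 4 replicates of some group, and the brightest probe stood for a gene. Symbols came from RefSeq accessions; the files hold 2 versions of the probe annotation, and the one with more matching accessions was used for all. The array design names an older genome build than RefSeq's GRCm38.p6, so the only coordinates printed are those of RefSeq's promoter windows. limma 3.58.1 (R 4.3.3) fitted a mean per group over 28 arrays (21 residual degrees of freedom, moderated variances) and made 13 comparisons, with p-values adjusted over all 20303 features by Benjamini and Hochberg. The fit was tested on simulated data. A fold against a group whose probe was not well above background on any array is given as a lower bound. Alternatives were normexp with an offset of 50 on median intensities, since the planned mean column is not among the columns, quantile normalization, the deposited table, other filters, the mean of probes, the compared groups alone, trended and robust variances, replicate and slide blocks, a term for sex, and each array left out.

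Named beside the 7 members are up to 4 called genes of each list per comparison, of which fewer are printed, the 3 genes most like each member and the most opposite 1. Members, lists and tests were chosen with earlier results of these data known, so no list is independent support. Hnf4a is outside this naming rule and was chosen after its values were seen.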

Additional observations from a re-analysis of the deposited data

Results flagged for a closer look

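Slco1b2 in replicate 1 of Fah-/- p53-/- livers with no NTBC had a level of 1.34, far below the other 3 arrays at 4.90 to 5.27, a gap of 0.907 of the group's range. The same array was the farthest of all 28 from the rest of its group, and without it Slco1b2 was called higher in Fah-/- p53-/- than in Fah-/- p21-/- livers. Slc22a7 in replicate 1 of Fah-/- p21-/- livers with no NTBC had a level of -3.30 beside -3.51 to -3.50 for the others, a gap of 0.943 of a range that is itself small. These are 2 of 42 groups examined, where chance gives about 1 in 20.

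The response to reduced NTBC differed between Fah-/- p53-/- and Fah-/- livers by -4.16 ± 0.62 for Slco1a4 (adjusted p = 2.01e-04, limma's test of the difference itself). For Slc22a26 the fitted differences were -5.00 for reduced and -6.16 for no NTBC. They are no measured responses: its probe was not well above background on 3 of 4 Fah-/- arrays on full NTBC or on any array with no NTBC.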

How the results depend on the processing

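Each member's fold change in each comparison was recomputed under the alternatives, giving 1607 values: 1568 kept their direction and side of the threshold or stayed uncalled, 14 lost the call, 25 gained it and 0 called values changed sign. The counts of called members that moved by over 1.5 times follow. For p53 loss on reduced NTBC (1 called) normexp and the deposited table gave 0 and the groups alone 3. With only probes well above background on all 28 arrays, which leaves out Slc22a26, p53 loss on reduced NTBC gave 0, p53 loss on full NTBC 1 (not 2), and the difference of responses 1 for reduced (not 2) and 0 for no NTBC (not 1). The groups alone gave 6 for reduced against full NTBC in Fah-/- livers (not 2), Slc22a26 among them. For p53 loss with no NTBC (1 called) the groups alone, slide as a fixed block, slide 6 alone and sex as a term each gave 0, and for p53 loss against p21 loss (1 called) the groups alone, the fixed slide block and slide 5 alone gave 0. For the difference in the no-NTBC response the deposited table gave 2. The replicate numbers are not shown to pair samples (correlations of same-numbered deviations ran from -0.226 to 0.357), and the replicate block gave 2 called there, changing no other count by as much. With each array left out, counts ran from 1 to 2 for p53 loss with no NTBC (2 without Fah-/- replicate 1) and for the difference in the no-NTBC response (2 without Fah-/- p53-/- replicate 2, with no NTBC), and from 1 to 4 for p53 loss against p21 loss (4 without Fah-/- p53-/- replicate 1). Leaving out the 3 arrays farthest from their groups, chosen after seeing the data, also gave 4. Normexp cut the calls over all features most, to 2002 from 8072 for reduced against full NTBC in Fah-/- livers and to 78 from 2108 for the difference in that response; no filter raised them to 12235 from 8088 in Fah-/- p53-/- livers. Normexp moved the median of all features by up to 0.37 in size (-0.37 for reduced against full NTBC in Fah-/- p53-/- livers, where 24.6% of calls were then higher, against 50.9%). In the same way the higher share of calls with normexp was 32.2% (main 42.5) and 30.9% (41.4) for no against full NTBC in Fah-/- p53-/- and Fah-/- livers, 22.4% (45.5) and 51.4% (62.9) for p53 loss on full and reduced NTBC, and 75.6% (64.9) for the difference in the reduced-NTBC response; with the deposited table it was 48.6% (37.8) for no against reduced NTBC in Fah-/- p53-/- livers. Over all features, slide as a fixed block gave 343 calls (main 2893) for p53 loss with no NTBC, 85 (1529) for p21 loss and 188 (2234) for p53 against p21 loss. Sex as a term left Slco1b2 uncalled between no and reduced NTBC in Fah-/- p53-/- livers (-1.74 ± 1.05, adjusted p = 0.184). Each member had 1 probe, so taking each other probe in turn was not run, and the mean of probes, with 78 of the 1607 values, could change nothing. Signal over background limits Slc22a26, above it on 13 of 28 arrays.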
